A study of Arabidopsis thaliana with 12 samples.

Results

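Tau class glutathione transferases are the largest plant-specific class of the glutathione transferase family. The members were all probe sets whose single annotated gene symbol in the array annotation is GSTU followed by a number. The rule found 11 genes, with 1 probe set each, among 22810 probe sets, of which 13513 carry 1 gene symbol. They are GSTU15, GSTU16, GSTU18, GSTU20, GSTU21, GSTU22, GSTU23, GSTU25, GSTU26, GSTU27 and GSTU28. The RefSeq annotation TAIR10.1 lists 27 genes with such a symbol, and the other 16 were not analysed here.

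Transcripts were measured in rosette leaves of Arabidopsis thaliana, ecotype Columbia, wild type, on 12 Affymetrix arrays, 1 per plant. All plants were 7 weeks old and had spent 72 h in constant light at 24 °C, and 4 treatments of 150 min followed. Plants were left beside the exposure chamber (outside; formaldehyde under 0.08 ppm) or placed in it with clean air (under 0.04 ppm), 1 to 2 ppm formaldehyde (low) or 14 to 16 ppm (high). Each group held 3 plants, and the 3 plants of a chamber group were exposed together, so a group cannot be told apart from its run in the chamber and p-values measure the spread between plants of 1 run.

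Glutathione transferases join the tripeptide glutathione to reactive carbon compounds, which can then be moved to the vacuole, and tau class members also bind lipid-derived ligands. Many tau class genes are known to be switched on by herbicide safeners, explosives, oxylipins and other electrophiles, in part through bZIP factors of the TGA group. Formaldehyde itself reacts with glutathione without an enzyme, and the adduct is the substrate of glutathione-dependent formaldehyde dehydrogenase.

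The values are log2 expression per probe set. The lowest value on any array was 2.11, and a log2 value of 4 or less was taken as not above background. Of the 11 genes, 5 were above 4 on at least 3 arrays and were tested: GSTU16, GSTU18, GSTU20 and GSTU27, above 4 on all 12 arrays, and GSTU25. GSTU25 passed this filter through its high exposure arrays, so its being tested depended on its level there. The other 6 are given as values. The arrays had median log2 values of 5.72 to 5.90. The excess of 3' over 5' signal, a measure of RNA degradation taken from the control probe sets of actin, GAPDH and ubiquitin, was 2.30 ± 0.04 outside, 2.42 ± 0.07 in clean air, 2.67 ± 0.10 in the low group and 2.77 ± 0.25 in the high group (mean log2 ± SD, n = 3). Spike-in bioC read 8.78 ± 0.13 in the low group against 6.53 ± 0.26 in clean air. The 14 other spike-in probe sets, which alone were used for spike-in scaling, averaged 10.18 ± 0.11 and 10.01 ± 0.20. The part of these measures in the results below was not tested.

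**Figure D1:**
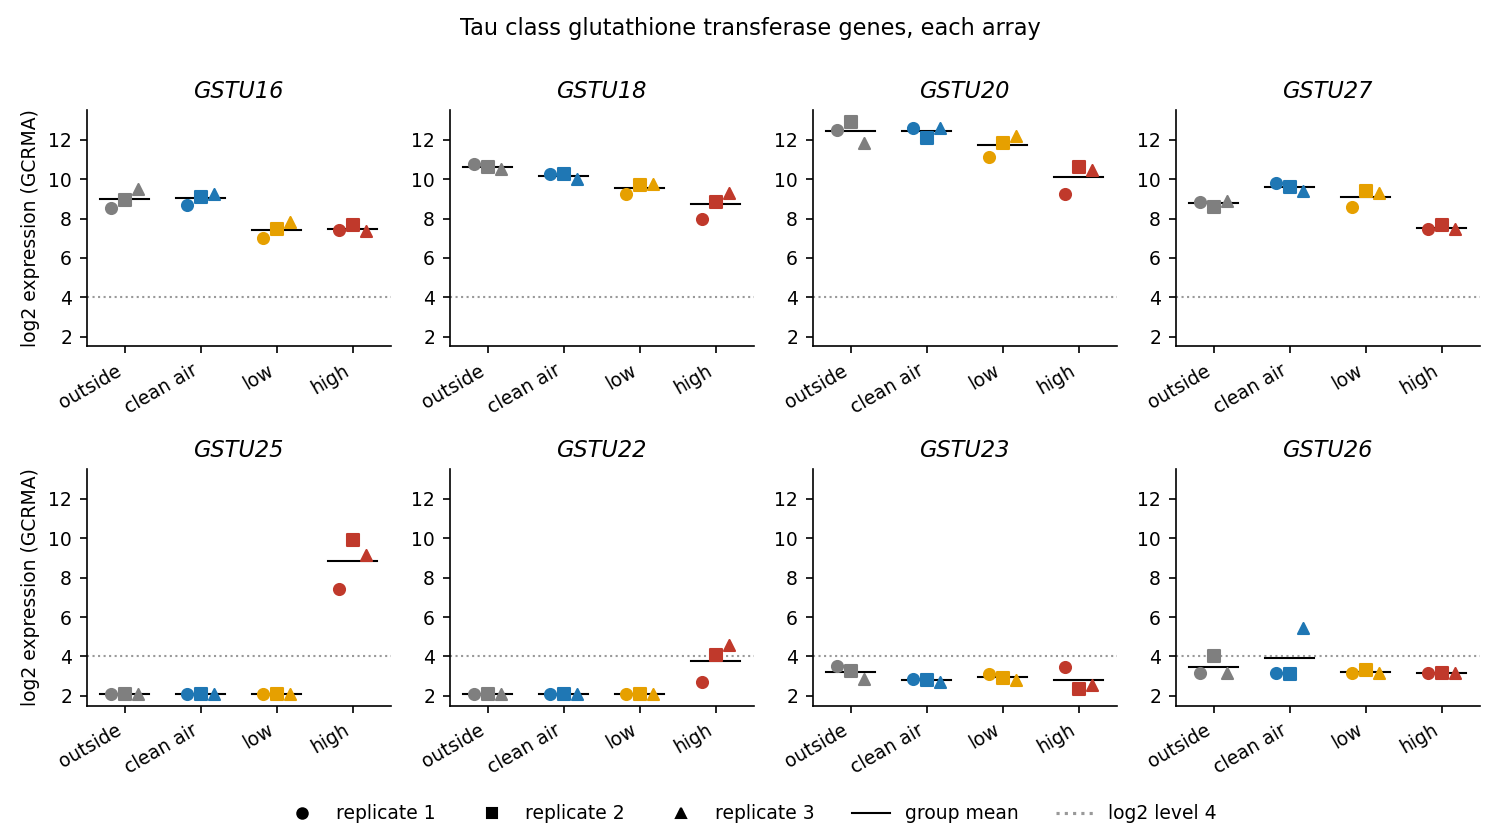
Log2 expression (y axis) of 8 tau class genes on each of the 12 arrays (points, shaped by replicate number), by group (x axis), with group means as black bars and the log2 level 4 as a dotted line. GSTU25 is at 2.11 on all arrays except those of high exposure, while GSTU18, GSTU20 and GSTU27 have their lowest mean there and GSTU16 is low at both doses; GSTU15, GSTU21 and GSTU28, at 2.11 on every array, are not drawn.

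High exposure was compared with clean air to ask which members differ after 14 to 16 ppm formaldehyde. GSTU25 rose from background to a clear signal, and the 4 members with a signal in every group, GSTU16, GSTU18, GSTU20 and GSTU27, all fell, to between 19.9% and 36.5% of their clean-air level. Over all 13874 probe sets tested, 22.8% were called higher and 30.1% lower in this comparison (limma, Benjamini-Hochberg adjusted p under 0.05), so calls in either direction were common. The median log2 difference was -1.54 for the 5 tested members and -0.10 for all probe sets tested.

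GSTU25 (AT1G17180) encodes an enzyme that can conjugate the explosive trinitrotoluene to glutathione and is a marker of TGA-dependent detoxification. Its 3 high exposure arrays read 7.44, 9.89 and 9.16, and its 9 other arrays all read 2.11. The high exposure group therefore did not overlap with any other. The rise was at least 28.5-fold, computed from the level 4, and the fitted log2 difference of 6.72 depends on the background value. The 3 high exposure arrays had an SD of 1.26 and the other arrays had no spread. No p-value is given, since the fit pools these spreads and the gene was tested through its high exposure arrays. Replicate 1 was the lowest of the 3 arrays, and the bound was 46.1-fold without it, 19.7-fold without replicate 2 and 25.4-fold without replicate 3.

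GSTU20 (AT1G78370) encodes a protein known to interact with FIN219 (JAR1), the jasmonate-conjugating enzyme of far-red light signalling. Its clean-air arrays read 12.61, 12.10 and 12.59, and its high exposure arrays 9.25, 10.60 and 10.46. The groups did not overlap, and replicate 1 was again the lowest array of high exposure. The gene fell by 2.33 ± 0.39 on the log2 scale (SE; adjusted p = 0.000504), to 19.9% of clean air with a 95% interval of 11.0% to 35.9%.

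GSTU27 (AT3G43800) read 9.79, 9.61 and 9.38 in clean air and 7.45, 7.67 and 7.48 at high exposure. Every high exposure array lay below every array of the other groups. It fell by 2.06 ± 0.21 (log2, SE; adjusted p = 2.04e-05), to 24.0% of clean air (95% interval 17.4% to 33.1%).

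GSTU16 (AT1G59700) read 8.70, 9.12 and 9.26 in clean air and 7.44, 7.66 and 7.35 at high exposure. The groups did not overlap, and it fell by 1.54 ± 0.27 (log2, SE; adjusted p = 0.000652), to 34.3% (22.8% to 51.7%).

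GSTU18 (AT1G10360) lies next to ERD9, which encodes the tau class enzyme GSTU17 of drought and light responses. It read 10.26, 10.25 and 9.99 in clean air and 8.00, 8.83 and 9.32 at high exposure. Replicate 1 was the lowest here too, and the groups did not overlap. The gene fell by 1.45 ± 0.28 (log2, SE; adjusted p = 0.00114), to 36.5% (24.0% to 55.6%).

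Replicate 1 of high exposure, the lowest array of its group for GSTU18, GSTU20 and GSTU25, also had the highest 3' minus 5' control signal of the 12 arrays, 3.05 against 2.70 and 2.57 for replicates 2 and 3. The calls of GSTU16, GSTU18, GSTU20 and GSTU27 held in each of the 12 fits that left out 1 array. Without any 1 array the log2 difference ranged from -2.58 to -1.91 for GSTU20, from -2.17 to -1.96 for GSTU27, from -1.70 to -1.43 for GSTU16, and from -1.75 to -1.09 for GSTU18. In the same arrays the 4 leaf mesophyll markers with a named probe set (RCA, SBPASE, PRK and ATPC1) also fell, with a median log2 difference of -0.88, where 30.1% of all probe sets tested were called lower. The phloem marker SWEET11 fell by 0.78 and the trichome marker TRY at least 2.52-fold. The guard cell marker FMA, with a difference of -0.42, was not called (adjusted p = 0.17), nor was the dividing cell marker AUR1, which was not above 4 on any array of either group. All 4 mesophyll markers averaged above 12 (log2) in every group, and none of the 6 root markers had a named probe set. In RNA from whole leaf, fewer cells of a type and less RNA per cell cannot be told apart.

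**Figure D2:**
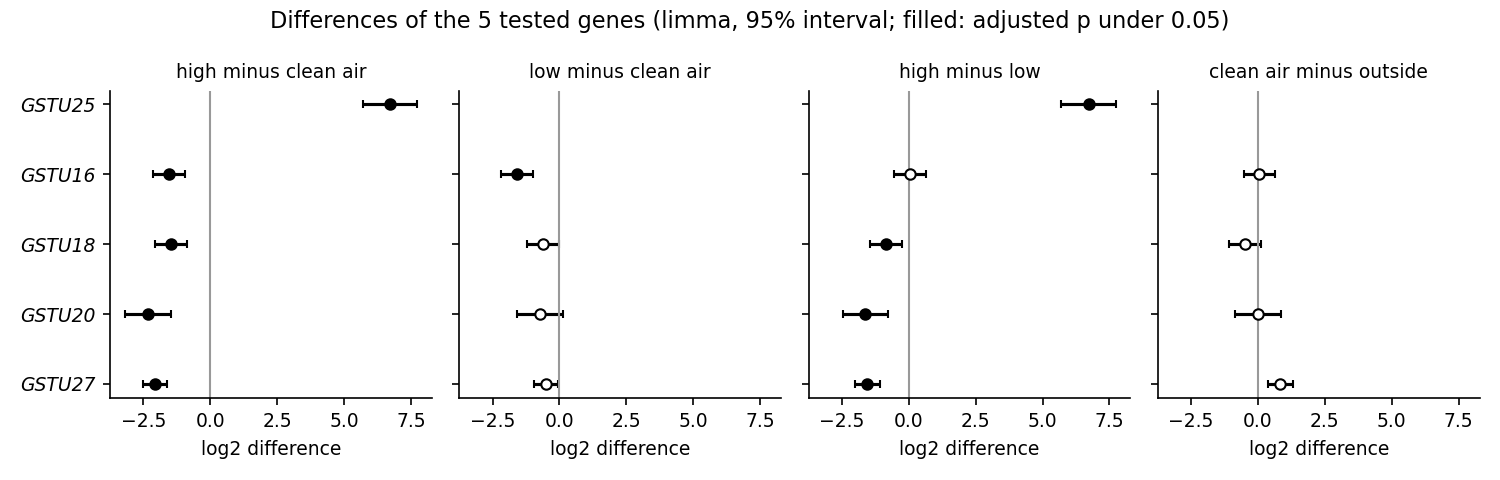
Log2 difference (x axis) of the 5 tested genes in 4 comparisons, with 95% intervals from limma and filled points where the adjusted p was under 0.05. GSTU25 is drawn only where either group was above background, and its interval pools the spread of groups that read 2.11 on every array. The gene was tested through its high exposure arrays, so its filled points are not taken as a test, and their position depends on the background value. In high minus clean air it is the only gene to the right of 0, and in low minus clean air GSTU16 alone is filled.

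Of the members that were not tested, GSTU22 (AT1G78340) had its only values off the lowest level at high exposure. Its value was 2.11 on the 9 arrays of the other groups and 2.69, 4.06 and 4.58 in the high group, above 4 on 2 arrays and so 1 array short of the filter. Fitted without a filter, its log2 difference at high exposure was 1.67, at the edge of background. No fold or p-value is given, since the fit pools the spread of groups that read 2.11 on every array. Its order over the 3 high exposure arrays differed from that of GSTU25, although replicate 1 was the lowest in both.

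GSTU26 (AT1G17190) is the chromosomal neighbour of GSTU25. It read 3.14 on all 3 high exposure arrays and exceeded 4 on 2 arrays, replicate 2 outside the chamber (4.04) and replicate 3 in clean air (5.44). No signal of GSTU26 above background was thus seen in the arrays where GSTU25 was high. GSTU23 (AT1G78320) stayed between 2.34 and 3.52 on all 12 arrays. GSTU15, GSTU21 and GSTU28 read 2.11 on all 12, so no statement on their change can be made.

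In the gene order of the RefSeq annotation 4 of the members lie in a run of 5 neighbouring tau class genes, GSTU23, GSTU22, GSTU21, GSTU20 and GSTU19. Within this run GSTU20 fell at high exposure, GSTU22 came up to the edge of background, and GSTU21 and GSTU23 stayed at or below it. GSTU25 and GSTU26 lie in a run of 3 with GSTU24. GSTU19 and GSTU24 were not analysed here. The names of the probe sets end in "_at" alone, the array maker's form for probes designed to be gene-specific, and cross-hybridisation between these related genes was not tested.

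The low dose, 1 to 2 ppm, was set against clean air in the same way. GSTU16 fell, to about the level it had at high exposure, and GSTU25 was not above background on any of the 3 arrays. Of the 5 tested members 1 was called lower and 0 higher, where 11.4% of all probe sets tested were called lower and 11.8% higher. The median log2 difference was -0.60 for the 5 and -0.01 for all probe sets tested. GSTU25, tested through its high exposure arrays, read 2.11 on every array of both groups. It could not have been called here, so the count and the median say nothing of it.

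GSTU16 read 7.01, 7.47 and 7.82 at low exposure, all below its lowest clean-air array of 8.70. It fell by 1.59 ± 0.27 (log2, SE; limma adjusted p = 0.00336), to 33.2% of clean air (95% interval 22.1% to 49.9%). Against plants outside the chamber, at 8.52, 8.92 and 9.48, it fell by 1.54 ± 0.27 (adjusted p = 0.00173).

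The other 3 expressed members had lower means at low exposure than in clean air, but none passed the test. GSTU18 read 9.25, 9.71 and 9.75, all below clean air, with a log2 difference of -0.60 (95% interval -1.21 to 0.00; adjusted p = 0.136). It was called without replicate 1 of high exposure (adjusted p = 0.0342), with array weights (0.0426) and against plants outside the chamber, from which it differed by -1.07 (adjusted p = 0.0122). GSTU20 read 11.15, 11.84 and 12.17, overlapping clean air, with a difference of -0.71 (-1.57 to 0.14; adjusted p = 0.206). GSTU27 read 8.57, 9.40 and 9.29, overlapping clean air, with a difference of -0.50 (-0.97 to -0.04; adjusted p = 0.106), and against plants outside its difference was 0.32. These intervals do not exclude a fall to 33.7% of clean air for GSTU20, 43.3% for GSTU18 or 51.1% for GSTU27.

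**Figure D3:**
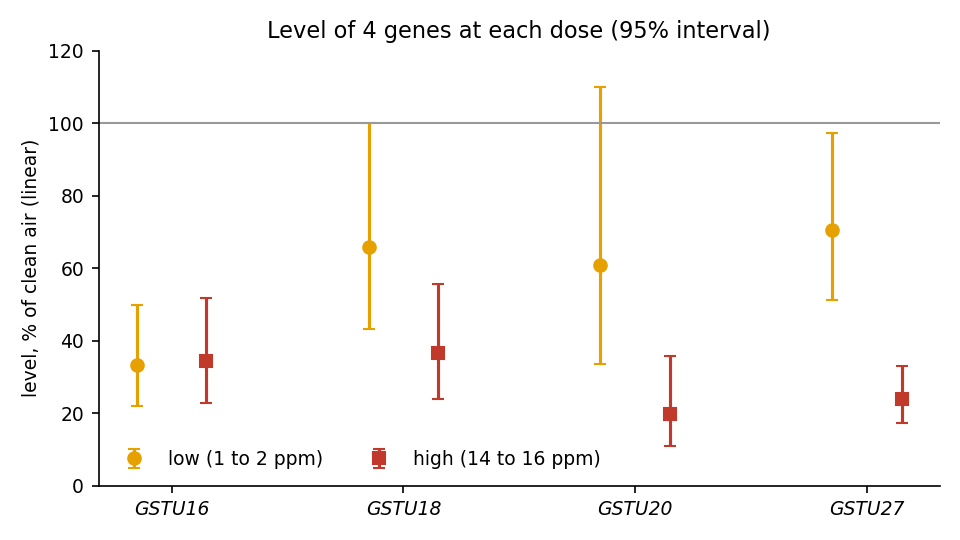
Level at low (circles) and high (squares) exposure as a percentage of the clean-air mean on a linear scale (y axis), for the 4 genes above background in every group (x axis), with 95% intervals from limma. GSTU16 is at 33.2% and 34.3% at the 2 doses, whereas GSTU20 is at 61.0% and 19.9%.

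The doses were compared directly, which is also the test of whether their differences from the shared clean-air control differ. GSTU25 was at least 28.5-fold higher at high than at low exposure, and GSTU20 and GSTU27 were lower. Their log2 differences were -1.62 ± 0.39 (SE, limma adjusted p = 0.00534) and -1.56 ± 0.21 (adjusted p = 0.000162). GSTU18 was lower by -0.85 ± 0.28 (adjusted p = 0.0242). GSTU18 no longer passed when replicate 2 or 3 of the low group or replicate 1 of the high group was left out (adjusted p up to 0.0755), and leaving out the latter gave a difference of -0.49. It also did not pass without the filter (0.0589), with spike-in scaling (0.059) or on the 6 arrays of these groups alone (0.0735). Thus 1 member was called higher and 3 lower, against 21.1% and 28.7% of all probe sets tested. The member called higher, GSTU25, was tested through its high exposure arrays, so the count says nothing of it. GSTU16 did not differ detectably between the doses, with a difference of 0.05 and a 95% interval of -0.54 to 0.64.

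Clean air was compared with the outside of the chamber to see what the chamber itself changed. No member was called by limma in this comparison, in which 3.04% of all probe sets tested were called, and 1 of the 5 members, GSTU27, had an unadjusted p under 0.05. GSTU25 read 2.11 on every array of both groups and could not have been called. GSTU27 read 8.82, 8.57 and 8.91 outside, all below its clean-air arrays, with a difference of 0.82 ± 0.21 (log2, SE; unadjusted p = 0.00244, adjusted p = 0.0607). It was called higher with array weights (adjusted p = 0.0284), with scaling to spike-in controls (0.0383) and when replicate 1 of the low group was left out (0.0239). GSTU18 read 10.75, 10.64 and 10.54 outside, all above clean air, with a difference of -0.47 (95% interval -1.08 to 0.13). GSTU16 averaged 8.97 outside and 9.02 in clean air, and GSTU20, at 12.52, 12.93 and 11.85 outside, averaged 12.43 in both groups.

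The order of the groups by mean level differed between members. For GSTU18 it was outside, clean air, low and high (10.64, 10.17, 9.57 and 8.72), where only the step from low to high passed the test. For GSTU20 outside and clean air led with 12.43 each, followed by low at 11.72 and high at 10.10, and again only the last step passed. For GSTU27 it was clean air, low, outside and high (9.59, 9.09, 8.77 and 7.53), and only the step from outside to high passed (difference -1.24 ± 0.21, adjusted p = 0.000532). For GSTU16 clean air and outside (9.02 and 8.97) lay above high and low (7.48 and 7.43), and the step between outside and high passed (difference -1.49, adjusted p = 0.000746) while the steps within each pair did not.

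Over the 12 arrays, which share the group differences above, the tested members correlated with r from 0.54 (GSTU16 and GSTU27) to 0.92 (GSTU18 and GSTU20) among the 4 that fell, and from -0.86 (GSTU27) to -0.51 (GSTU16) with GSTU25. Among 7475 other tested probe sets with 1 gene, the 5 most like GSTU25 were AT2G23270 (r = 0.999), AT5G37490 (0.999), UGT73B4 (0.998), AT1G71530 (0.997) and AT1G53540 (0.997). UGT73B4 encodes a glycosyltransferase of the group that acts on xenobiotics and AT1G53540 a cytosolic small heat shock protein. All 5 were at background on the 9 arrays outside high exposure, so these coefficients rest on the 3 high exposure arrays. Like GSTU25, AT2G23270 was lowest in replicate 1 (6.51) and highest in replicate 2 (8.10), while AT1G53540 was highest in replicate 3 (12.44). Most like GSTU20 were VTC4 (r = 0.973), a phosphatase gene of ascorbate synthesis, AT3G01060 (0.963) and AT2G41250 (0.961). VTC4 read 9.69, 9.33 and 9.56 in clean air and 7.81, 8.07 and 8.52 at high exposure.

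Other glutathione transferase classes had 3 named probe sets, of which 2 were tested, and 1 was called higher and 1 lower at each dose. Of all probe sets tested, 22.8% were called higher and 30.1% lower at high exposure. At low exposure the shares were 11.8% and 11.4%. GSTF4, of the phi class, read 4.00, 3.86 and 3.47 in clean air, 5.57, 6.02 and 5.51 at low and 5.50, 4.83 and 5.45 at high exposure. From clean-air values near background it rose by 1.92 ± 0.39 at low exposure (log2, SE, limma adjusted p = 0.00724). At high exposure the rise was 1.48 ± 0.39 (adjusted p = 0.00807). With values below 4 raised to 4, which takes away spread near background, the rises were 1.70 and 1.26. GSTL3, of the lambda class, whose members can remove glutathione from flavonols, fell by 0.75 ± 0.14 at low (adjusted p = 0.00537) and by 0.81 ± 0.14 at high exposure (log2, SE; adjusted p = 0.000662). ATGSTF13 was at 2.11 on all 12 arrays.

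Of genes of glutathione supply and thiol exchange, 4 were tested. Only 2 of the 18 names listed for glutathione supply and turnover had a named probe set. Of the 2 glutathione reductase genes, which regenerate glutathione from its oxidised form, GR1 fell at high exposure by 0.73 ± 0.20 (adjusted p = 0.00938) and GR, the organellar enzyme, differed by -0.52 ± 0.20 without passing (adjusted p = 0.0508; it passed with quantile normalization, against plants outside, and when clean-air replicate 2, low replicate 3 or high replicate 3 was left out). Neither passed at low exposure. The glutaredoxin gene GRXC2 fell at low exposure by 0.71 ± 0.14 (adjusted p = 0.00665), and its difference at high exposure was 0.03. GRXC1 differed by -0.54 at low (adjusted p = 0.0518; it passed with spike-in scaling, with array weights, against plants outside, and when replicate 1 of any chamber group was left out) and by 0.27 at high exposure, without passing.

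The glutaredoxin gene GRX480, whose product binds TGA factors, read 4.11, 3.12 and 6.65 in clean air and 9.27, 11.33 and 11.36 in the high group. It rose by 6.02 ± 0.91 at high exposure (log2, SE; adjusted p = 0.000271), and at low exposure, where it read 2.82, 2.60 and 4.31, its difference of -1.38 did not pass. Plants outside the chamber read higher than clean air in mean, at 5.65, 7.76 and 7.16. Against them the rise at high exposure was 3.79 (adjusted p = 0.00455) and the low group was called lower, by -3.61 (adjusted p = 0.0113). Against clean air the rise was 7.03 without clean-air replicate 3, 5.27 without clean-air replicate 2, 6.71 without high replicate 1 and 7.18 with array weights. No TGA factor itself had a named probe set.

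The list of electrophile-responsive detoxification genes, chosen with earlier results of these data known, held 15 names. Of these, 6 had a named probe set, and all 6 were tested. Each was higher at high exposure than in clean air, where 22.8% of all probe sets tested were called higher. Given how the list was chosen, the count is a description and not a test. AT2G04050, UGT73C1 and UGT73B4 passed the filter on low values through their high exposure arrays, so the count says nothing of them and their folds are lower bounds. AT2G04050, a MATE transporter gene, was at least 61.1-fold higher, and the glycosyltransferase genes UGT73C1 and UGT73B4 were at least 50.4-fold and at least 21.0-fold higher. The other 3 members were above 4 in clean air too. The glycosyltransferase gene UGT73B5 rose 123-fold and the MATE transporter gene AT2G04070 79.6-fold. Their clean-air arrays, at 4.40, 4.75 and 4.33 and at 4.49, 4.17 and 4.10, were near background, so these 2 folds depend on values there. AER, an alkenal reductase gene named here after its values were seen, read 7.87, 8.21 and 8.13 in clean air and 12.83, 12.47 and 12.39 in the high group, a rise of 4.49 ± 0.19 (log2, SE). At low exposure none of the 6 was called higher, where 11.8% of all probe sets tested were. AT2G04050, UGT73C1 and UGT73B4 were at or below 4 in both groups, so a change at that dose could not be measured for them. UGT73B5 was called lower there, by -0.79 (adjusted p = 0.0418), a difference near background whose call was lost in 13 of 22 alternative fits, 8 of them leaving out 1 array (adjusted p up to 0.144). Of 5 names listed for glutathione-dependent formaldehyde oxidation, only FDH, formate dehydrogenase, had a named probe set. FDH differed by -0.94 at high exposure without passing (adjusted p = 0.087). It passed with spike-in scaling, with array weights and on the 6 arrays of these groups alone. It also passed when clean-air replicate 1 or low replicate 3 was left out. In these fits the adjusted p ran from 0.00668 to 0.0451. No gene of the ABCC transporters had a named probe set.

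**Figure D4:**
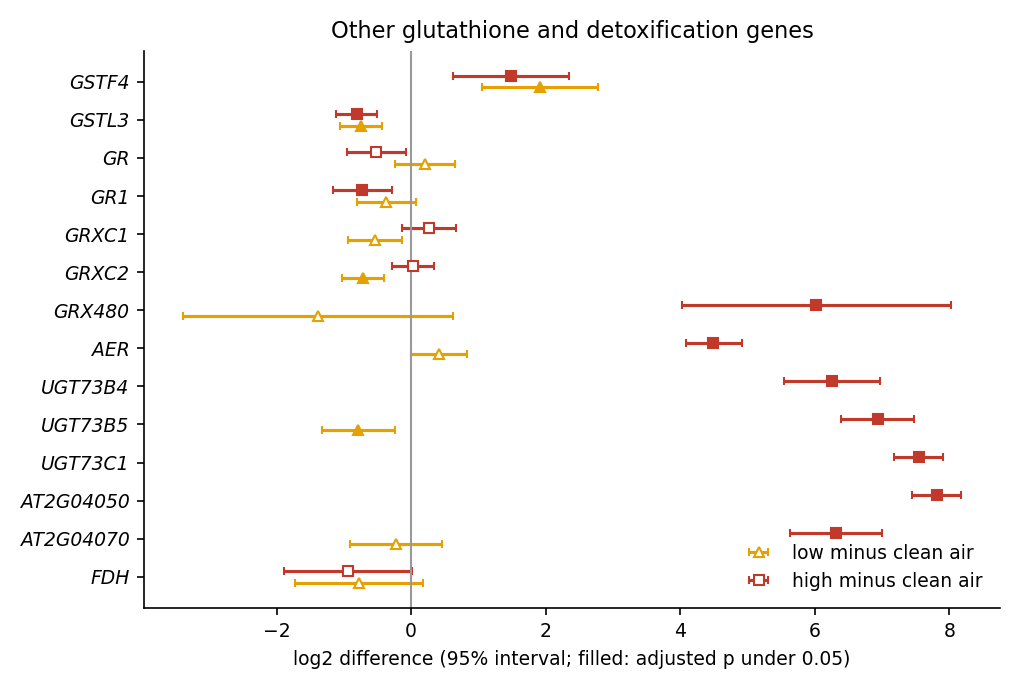
Log2 difference from clean air (x axis) at low (triangles) and high (squares) exposure of 14 other glutathione and detoxification genes (y axis), with 95% intervals from limma and filled points where the adjusted p was under 0.05. Genes at or below the level 4 in both groups have no point. GRX480 and the 6 genes below it on the axis, from AER to AT2G04070, lie far to the right at high exposure, and GSTF4 and GSTL3 have like differences at both doses. AT2G04050, UGT73C1 and UGT73B4 were tested through their high exposure arrays and were at background on all others. The positions and intervals of these genes depend on the background value, and their filled points are not taken as a test.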

How the data were processed

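The deposited values are log2 expression per probe set, background-corrected and normalized by the authors with GCRMA (source: the submitters' processing notes). The GCRMA version and options are not stated in the labels. That the scale is log2 follows from the values, which start at 2.11 on every array. Total RNA of about 100 mg of leaf was biotin-labelled, per the labels' protocols. Precision is limited by the number of arrays, 3 per group.

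Group means were estimated from the 12 arrays together in limma 3.58.1 under R 4.3.3 (lmFit, then eBayes with trend), without the 64 control probe sets. Probe sets above 4 on at least 3 arrays were tested, and p-values were Benjamini-Hochberg adjusted over all of them. The code was tested on simulated data. A fold against a group whose arrays were all at or below 4 is computed from 4 and given as "at least". No 2 arrays were identical, and r within groups lay between 0.985 and 0.996 over all probe sets.

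Genes were named by array annotation, updated through RefSeq TAIR10.1. All members are named, with up to 4 called members of each other list (ranked at high exposure), and the genes most like GSTU25 (5) and GSTU20 (3) by Pearson's r. Members and lists were chosen with earlier results of these data known. Alternatives were filters, normalization, variance models, the control group, a replicate block and leaving out each array. The files name no genome build, so no coordinates are given. Plots were made in Python 3.11.15 using matplotlib 3.10.9.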

Additional observations from a re-analysis of the deposited data

How the results depend on the processing

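The counts of tau class members called per comparison and direction kept their value, or lay within 1.5 times of it, in 162 of 172 refits. With no filter, 2 members were called higher at high exposure, against clean air and against low exposure, as GSTU22 joined GSTU25. Both read 2.11 on every array outside high exposure, so these calls are not taken as support. With a filter of 6 arrays the number called higher was 0, since GSTU25 was not tested. At low exposure 2 were called lower with array weights and against plants outside (GSTU16 and GSTU18), and 1 to 2 when 1 array was left out. In clean air against outside, 1 was called higher with spike-in scaling and with array weights (GSTU27), and 0 to 1 when 1 array was left out. Among small differences that did not pass, signs turned when 1 array was left out for GSTU16 between the doses (-0.16 to 0.25), for GSTU16 between clean air and outside (-0.17 to 0.31) and for GRXC2 at high exposure (-0.09 to 0.12; also -0.14 with spike-in scaling and -0.06 with array weights). The sign of GSTU27 at low exposure turned only with plants outside as the control (0.32). The cause was not tested. Spike-in scaling moved the median of all probe sets from -0.10 to -0.27 at high exposure and from 0.02 to 0.28 in clean air against outside; relative to that median GSTU20, GSTU27, GSTU16 and GSTU18 were at -2.23, -1.96, -1.44 and -1.35 at high exposure. The share of calls that were higher went from 43.0% to 32.6% at high exposure, from 50.8% to 24.8% at low exposure and from 55.9% to 89.0% in clean air against outside.

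Over all probe sets, 1639 were called higher and 1585 lower at low exposure, 621 higher with spike-in scaling, 2432 lower with array weights, 2491 higher and 2428 lower against plants outside, and down to 822 and 778 when 1 array was left out. In clean air against outside 236 and 186 were called, 751 and 93 with spike-in scaling, 689 and 499 with array weights, 100 and 86 with no filter, 40 and 63 from 6 arrays alone, and down to 27 and 38 when 1 array was left out. The replicate numbers were not used to pair the plants in the main fit. Of 18 same-numbered pairs 8 correlated over 0.1 in their deviations (from -0.328 to 0.326), while other-numbered pairs ran from -0.382 to 0.331. Of the 12 arrays 5 correlated best with their own number. These values do not settle whether the numbers pair the plants. With a replicate block the counts of members called were the same, 1 higher and 4 lower at high exposure. Each member had 1 probe set, so the use of other probe sets was not run. Differences against values at background are bounds only.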

Other observations

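The genes next to the members were listed after the values had been seen, taking the 2 nearest protein-coding genes on each side in the RefSeq order. Apart from genes named GSTU with a number there were 25 such neighbours, the tau class gene ERD9 among them. Of the 25, 11 had a named probe set and 8 were tested, and ERD9 had none. At high exposure against clean air 2 of these 8 were called higher and 2 lower, where 22.8% and 30.1% of all probe sets tested were called. Both that rose lie beside GSTU15 and GSTU16: AT1G59660, next to GSTU15, rose by 1.99 ± 0.18 and AT1G59710, next to GSTU16, by 1.94 ± 0.17 (log2, SE; limma adjusted p = 9.17e-06 and 8.39e-06), while GSTU16 itself fell. Both that fell lie near GSTU18. AT1G10350, next to it, fell by 0.74 ± 0.18 (adjusted p = 0.00488). AT1G10380, with ERD9 in between, fell by 1.20 ± 0.27 (adjusted p = 0.00352). AT1G10340, also near GSTU18, was not called at -0.82 ± 0.57. CRR28 near GSTU16 (-0.84 ± 0.33) and CW14 near GSTU15 (0.16 ± 0.20) were not called either. AT1G17160, the tested neighbour of GSTU25, had a difference of -0.01 ± 0.20.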
